A study of Mus musculus with 9 samples.

Results

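The genes described here encode the pore-forming and accessory subunits that carry the main repolarizing potassium currents of the heart. They were chosen by name: Kcnd2, Kcnd3, Kcnip2, Kcnj2, Kcnj11, Kcna5, Kcnq1, Kcne1 and Kcnh2. These are 9 of the 55401 rows of a table of RNA-seq counts from mouse hearts. None of the 9 symbols was on more than 1 row, and all 9 passed the filter on low counts. The study had 3 groups of 3 libraries. Control hearts came from wild-type (WT) mice and form the sham arm of the stated design. TAC hearts came from WT mice with transverse aortic constriction (TAC), an operation that narrows the aorta and raises the load on the left ventricle, and were titled 12 weeks. KO-TAC hearts, also titled 12 weeks, came from c-Myc flox/flox mice carrying Tcf21 iCre, a tamoxifen-inducible Cre driven by a gene of cardiac fibroblasts. Tamoxifen was given to that line at 45 mg/kg on 5 consecutive days, and the sources used here do not say whether WT mice received it. All mice were males operated on at 8 to 12 weeks of age. The Cre acts in fibroblasts, whereas the channels are mainly cardiomyocyte genes, and no knockout group without TAC was analysed here. Tamoxifen, Cre and loss of Myc therefore cannot be told apart in the comparisons with KO-TAC.

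A ventricular action potential ends when potassium leaves the cardiomyocyte through several kinds of channel that open in turn. In the mouse the early, fast transient outward current runs through Kv4 channels, tetramers of the Kcnd2 and Kcnd3 products with the cytosolic subunit KChIP2, the Kcnip2 product. The Kcna5 product carries the ultrarapid delayed rectifier, the Kcnh2 product the rapid delayed rectifier (IKr), and the Kcnq1 product, with the small Kcne1 subunit, the slow one (IKs). Inward rectifiers of the Kcnj family hold the resting potential (Kcnj2) or open when ATP falls (Kcnj11). Loss of transient outward current and longer action potentials are a known feature of hypertrophied and failing hearts.

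Upstream sequences are shown for 4 genes: the fast transient outward pair Kcnd2 and Kcnip2, Kcnj2, and Kcna5, the gene whose mean differed from control in the opposite direction under TAC. Each is the 250 bases before the RefSeq start, 5′ to 3′ on the gene's own strand, in build GRCm38.p6. Capitals mark matches to the motifs searched, CACGTG (an E-box of the kind that Myc and Max bind), ACANNTGT (Iroquois factors), TGANTCA (AP-1), AGATAA (for GATA factors) and CCCGCCC (GC box), on both strands.
Kcnd2, chr6:21215096-21215345, plus strand: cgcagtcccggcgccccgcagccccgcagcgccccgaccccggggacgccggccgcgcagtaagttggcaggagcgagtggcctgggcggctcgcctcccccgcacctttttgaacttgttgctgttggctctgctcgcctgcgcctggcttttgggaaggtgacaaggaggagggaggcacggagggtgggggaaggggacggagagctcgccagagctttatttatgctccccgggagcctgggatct
Kcnip2, chr19:45816064-45816313, minus strand: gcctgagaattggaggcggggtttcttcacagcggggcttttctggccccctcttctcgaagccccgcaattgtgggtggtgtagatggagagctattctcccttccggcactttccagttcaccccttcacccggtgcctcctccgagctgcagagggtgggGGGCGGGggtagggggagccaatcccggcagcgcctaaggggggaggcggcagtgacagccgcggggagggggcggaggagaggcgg
Kcnj2, chr11:111065914-111066163, plus strand: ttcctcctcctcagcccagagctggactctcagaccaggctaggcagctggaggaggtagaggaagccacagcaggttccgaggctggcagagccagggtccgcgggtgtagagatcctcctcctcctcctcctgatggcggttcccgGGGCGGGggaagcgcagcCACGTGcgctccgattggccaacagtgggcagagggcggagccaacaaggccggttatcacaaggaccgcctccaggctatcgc
Kcna5, chr6:126535556-126535805, minus strand: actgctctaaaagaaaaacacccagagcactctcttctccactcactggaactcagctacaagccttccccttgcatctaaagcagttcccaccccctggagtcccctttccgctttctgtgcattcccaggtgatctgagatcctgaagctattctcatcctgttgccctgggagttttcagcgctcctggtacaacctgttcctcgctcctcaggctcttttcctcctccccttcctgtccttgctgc
Of these 4 windows, the Kcnj2 window alone held CACGTG, beside a GC box. The Kcnip2 window held a GC box, and the Kcnd2 and Kcna5 windows held none of the 5 motifs. Among the 32851 RefSeq promoters in the table, 6.02% held CACGTG in the same 250 bases, 6.31% ACANNTGT, 6.75% TGANTCA, 9.99% AGATAA and 23.4% CCCGCCC. GC content was 68.8% for Kcnd2, 66.8% for Kcnip2, 65.6% for Kcnj2 and 53.2% for Kcna5, against a median of 52.4% for all promoters. A match describes letters only, and no binding was measured. Windows were also available for Kcnd3, with no match, and Kcnh2, with 3 GC boxes, so 6 of the 9 genes were covered. The Kcnh2 window (chr5:24329592-24329841, minus strand) lies inside the GENCODE span of the gene, 24319589 to 24351604. It is therefore not the sequence before the 5′ end of that span.

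Libraries held 59702513 to 109162107 counts. The 9 genes had between 35 and 12827 counts in a library. Levels are given in CPM, a gene's count divided by the total of its library on the customary scale, adjusted with TMM factors. Myc, the targeted gene, was at 2.15, 2.47 and 1.56 CPM in control replicates 1, 2 and 3, at 8.93, 6.22 and 14.2 CPM in TAC and at 4.23, 1.87 and 4.75 CPM in KO-TAC. Every KO-TAC heart was below every TAC heart, but RNA from cells that keep Myc is included, so this checks the labels only in part. Hearts of the TAC group stood far apart. A mean over 16 cardiomyocyte markers (Myh6, Tnnt2, Ryr2 and others), on the log2 scale relative to control, was -0.59, 0.22 and -2.39 in TAC replicates 1, 2 and 3 and -0.50, -0.03 and -0.06 in KO-TAC. TAC replicate 3 thus had the lowest marker mean, and that of TAC replicate 2 was above control. In bulk tissue, fewer cells of a type and less RNA per cell cannot be told apart. Atrial markers were led by Nppa. The atrial genes Myl7 and Sln were at 0 to 0.758 and 0 to 0.585 CPM over the 9 hearts. The share of atrial tissue in the samples was not tested. Summed endothelial markers were at 1571 to 1692 CPM (control), 1898 to 4303 CPM (TAC) and 1719 to 1952 CPM (KO-TAC). The corresponding sums for fibroblasts were 1425 to 1607, 1516 to 3692 and 1736 to 2070 CPM, and for immune cells 174 to 188, 156 to 336 and 186 to 321 CPM.

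Control hearts differed little among themselves, and the channel genes had a clear order. Per kilobase of the longest GENCODE transcript, the scale on which genes can be compared, mean levels in control were 52.2 CPM per kb for Kcnip2, 44.4 for Kcnj11, 20.3 for Kcnh2, 12.3 for Kcnq1, 9.24 for Kcnj2, 7.0 for Kcna5, 4.77 for Kcnd2, 2.63 for Kcnd3 and 0.582 for Kcne1 (n = 3). In that order, Kcnj2 and Kcna5 were the only neighbours whose ranges over the 3 control hearts overlapped. The accessory subunit KChIP2 was thus the most abundant of the 9 mRNAs, and the 2 Kv4 pore genes were among the lowest. In TAC hearts Kcna5 stood at rank 3, at 16.2 ± 5.59 CPM per kb (SD, n = 3), and only the neighbours Kcna5 and Kcnh2, and Kcnd3 and Kcne1, did not overlap. KO-TAC hearts had Kcna5 at rank 5, at 5.96 ± 1.87 CPM per kb, between Kcnq1 and Kcnj2.

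**Figure D1:**
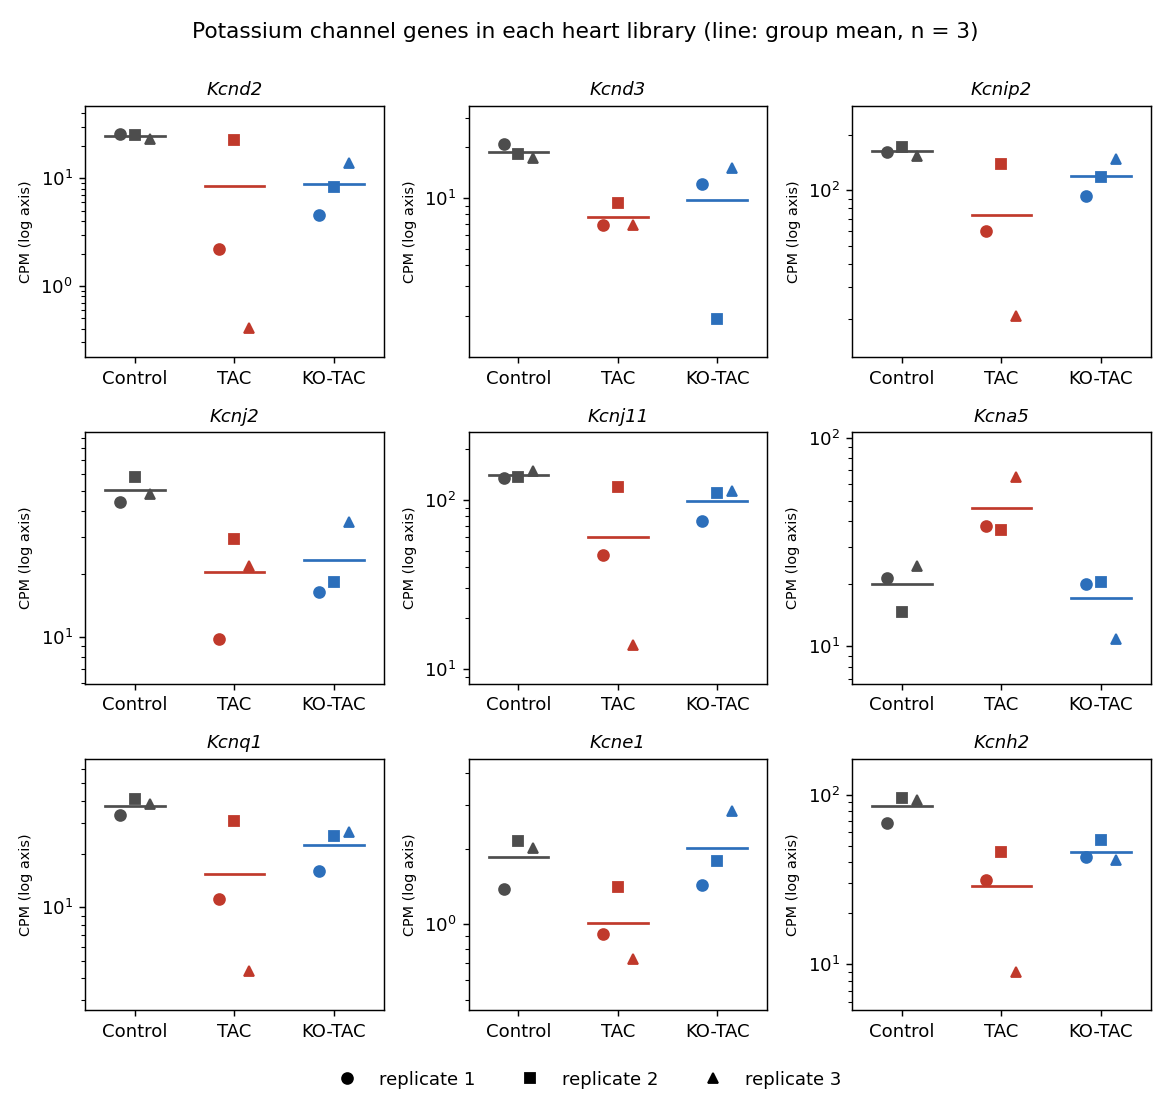
CPM of each channel gene (log axis, 1 panel per gene) in 3 control, 3 TAC and 3 KO-TAC hearts; symbols mark replicate numbers and horizontal lines the group means. Of the TAC hearts, replicate 2 lies nearest to the controls for every gene, and Kcna5 is the gene for which all 3 TAC hearts lie above all 3 control hearts.

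TAC against control asks how pressure overload changes the heart. Mean levels were lower in TAC for 8 of the 9 genes and higher for Kcna5. All 3 TAC hearts lay below all 3 controls for 7 genes (Kcnd2, Kcnd3, Kcnip2, Kcnj2, Kcnj11, Kcnq1 and Kcnh2) and above them for 1, Kcna5. Over the 19051 genes tested, 48.5% had a log2 difference below 0, 14.0% were lower without overlap and 14.1% were higher without overlap. None of the 9 passed an adjusted p of 0.05 in edgeR's quasi-likelihood test, and neither did any other gene (0% of 19051). At an unadjusted p under 0.05 there were 5 of the 9 (Kcnd3, Kcnj2, Kcna5, Kcnq1 and Kcnh2), against 21.3% of all genes. The median log2 difference of the 9 was -1.28, against 0.03 for all genes tested.

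Kcnd2 (ENSMUSG00000060882, GRCm38 chromosome 6, 21215503 to 21729805), the Kv4.2 pore gene, was at 25.5, 25.2 and 22.9 CPM in control replicates 1, 2 and 3. In TAC it was at 2.19, 22.6 and 0.405 CPM. The value of replicate 3 rests on 35 counts (95% exact Poisson interval 24.4 to 48.7, counting error only). TAC replicates 1 and 3 thus had a small fraction of the control level, 8.93% and 1.65%, while replicate 2 was just under the lowest control at 92.1%. The group difference was -1.55 ± 1.05 (log2, SE), with an edgeR adjusted p of 0.393. Kcnd2 spanned a 59.5-fold range over the 9 hearts, the widest of the 9 genes.

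Kcnd3 (ENSMUSG00000040896, chromosome 3, 105452330 to 105674002), the Kv4.3 pore gene, was at 20.9, 18.3 and 17.3 CPM in control and at 6.96, 9.31 and 6.97 CPM in TAC. All 3 TAC hearts were low by a similar amount, including replicate 2. The difference was -1.28 ± 0.56 with an edgeR adjusted p of 0.230. Kcnip2 (ENSMUSG00000025221, chromosome 19, 45791839 to 45816061), which encodes KChIP2, was at 162, 172 and 153 CPM in control and at 60.1, 139 and 20.9 CPM in TAC. The 3 TAC values ran from near control to a fraction of it, in the same order as those of Kcnd2. Its difference was -1.15 ± 0.54 with an edgeR adjusted p of 0.251.

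Among the inward rectifiers, Kcnj2 (ENSMUSG00000041695, chromosome 11, 111066164 to 111076821) encodes Kir2.1, which sets the resting potential. It was at 44.4, 58.1 and 48.4 CPM in control and at 9.74, 29.3 and 21.9 CPM in TAC, so that here replicate 1 and not replicate 3 was the lowest TAC heart. The difference was -1.31 ± 0.41 with an edgeR adjusted p of 0.154. Kcnj11 (ENSMUSG00000096146, chromosome 7, 46093953 to 46100764), the pore gene of the ATP-sensitive channel, was at 134, 136 and 148 CPM in control and at 47.4, 120 and 13.8 CPM in TAC. TAC replicate 3 had 9.91% of the control mean and replicate 2 had 85.8%. The difference was -1.21 ± 0.59 with an edgeR adjusted p of 0.267.

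Of the delayed rectifiers, Kcnh2 (ENSMUSG00000038319, chromosome 5, 24319589 to 24351604) is the IKr pore gene. It was at 67.9, 95.6 and 92.9 CPM in control and at 31.5, 46.0 and 9.02 CPM in TAC. Replicate 2, close to control for several other channel genes, was at 53.9% of the control mean for Kcnh2. The difference was -1.57 ± 0.48 with an edgeR adjusted p of 0.148. Kcnq1 (ENSMUSG00000009545, chromosome 7, 143106362 to 143427042), the IKs pore gene, was at 33.0, 40.8 and 38.4 CPM in control and at 11.2, 30.7 and 4.41 CPM in TAC. Its difference was -1.28 ± 0.56 with an edgeR adjusted p of 0.229. Kcne1 (ENSMUSG00000039639, chromosome 16, 92345982 to 92359468), the IKs accessory subunit, was the least abundant, at 1.38, 2.15 and 2.01 CPM in control and 0.917, 1.404 and 0.729 CPM in TAC. These groups overlapped, and the difference was -0.86 ± 0.39 with an edgeR adjusted p of 0.240.

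Kcna5 (ENSMUSG00000045534, chromosome 6, 126532551 to 126535412) encodes Kv1.5, a delayed rectifier of cardiomyocytes that vascular smooth muscle also uses. It was at 21.3, 14.6 and 24.2 CPM in control and at 38.0, 36.2 and 64.8 CPM in TAC. All 3 TAC hearts were higher than all controls, and replicate 3, with the lowest cardiomyocyte marker mean, was the highest. The difference was 1.21 ± 0.33 with an edgeR adjusted p of 0.137. Summed smooth muscle and pericyte markers were at 788 to 843 CPM in control and at 974, 781 and 576 CPM in TAC replicates 1, 2 and 3. The gene with the highest mean CPM in that list, the pericyte gene Rgs5, was at 475 to 532 CPM in control and at 648, 503 and 249 CPM in TAC. Tagln, a contractile smooth muscle gene, was at 16.9 to 19.6 CPM in control and at 32.2, 16.7 and 49.3 CPM in TAC. Of the other contractile genes in the list, Acta2 and Myh11 were lowest in TAC replicate 3. Acta2 was at 34.9 to 61.6 CPM in control and at 46.6, 68.0 and 36.5 CPM in TAC. Myh11 was at 36.9 to 47.2 CPM and at 36.9, 24.4 and 24.0 CPM. Cnn1, at 0.920 to 1.09 CPM in control, was at 1.75, 0.484 and 3.16 CPM in TAC, highest in replicate 3. The endothelial sum in TAC was 2929, 1898 and 4303 CPM. The part of smooth muscle, endothelial, fibroblast or immune cells in the Kcna5 values was not tested.

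**Figure D2:**
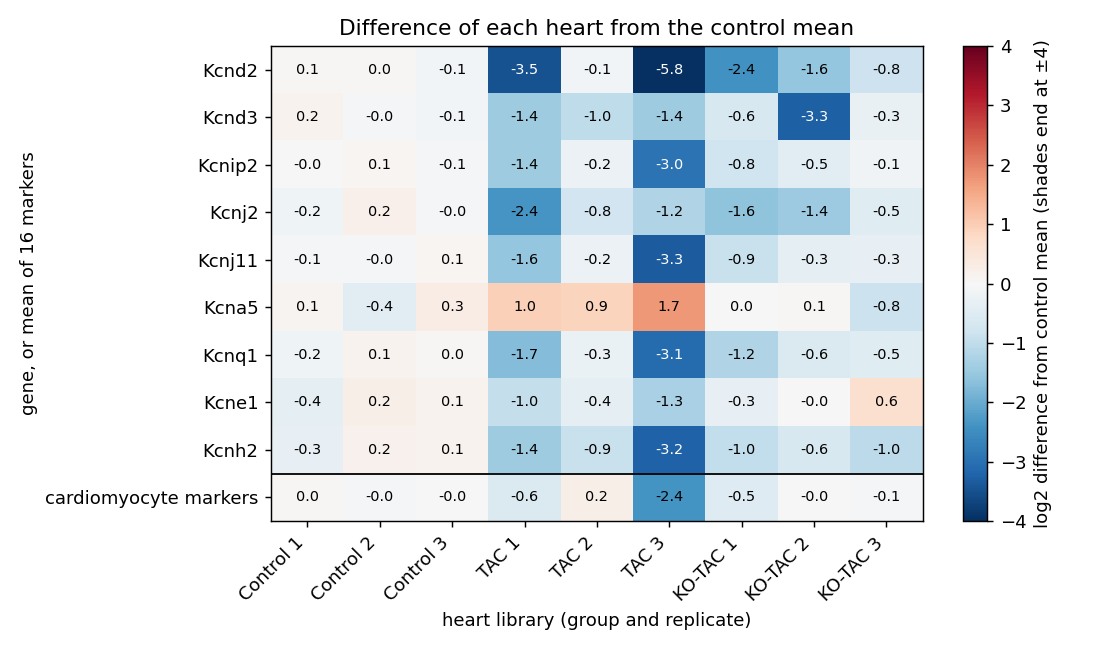
Log2 difference of each of the 9 hearts from the control mean for the 9 channel genes, with the mean of 16 cardiomyocyte markers in the bottom row; blue is lower, red higher, and shades end at 4 in either direction. TAC replicate 3 is the lowest heart for the markers (-2.39) and for Kcnd2 (-5.84), Kcnip2, Kcnj11, Kcnq1 and Kcnh2, while Kcna5 is highest there (1.72).

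KO-TAC against TAC compares hearts of the knockout line with WT hearts after the same operation. No measure of load was used here. Kcna5 showed the clearest difference: it was at 19.8, 20.4 and 10.9 CPM in KO-TAC, below all 3 TAC hearts. The fitted difference was -1.44 ± 0.33, or 2.72-fold lower (unadjusted p = 0.00153, rank 81 of 19051 genes by p, edgeR adjusted p = 0.354). The other genes had KO-TAC means at or above those of TAC, so 1 of the 9 had a log2 difference below 0, against 49.2% of all genes. Kcne1, the IKs accessory gene, was the only one higher without overlap, at 1.44, 1.78 and 2.83 CPM. Its difference was 0.99 ± 0.39 with an edgeR adjusted p of 0.663.

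None of the 9 genes passed an adjusted p of 0.05 in edgeR in this comparison, nor did any other gene (0%). Unadjusted p was under 0.05 for 2 of the 9, Kcna5 and Kcne1, against 7.45% of all genes. Of all genes, 4.8% were lower without overlap, as was 1 of the 9, and 5.17% were higher without overlap, as was 1 of the 9. Kcnip2 (0.71 ± 0.54), Kcnj11 (0.71 ± 0.59), Kcnh2 (0.67 ± 0.47) and Kcnq1 (0.55 ± 0.55) had differences of about their standard error or a little more. Those of Kcnd3 (0.33 ± 0.55), Kcnj2 (0.20 ± 0.40) and Kcnd2 (0.08 ± 1.03) were smaller than their errors. Adjusted p was 0.726 to 0.984 for these 7 genes in edgeR. The SD of CPM was smaller in KO-TAC than in TAC for 6 of the 9 genes, for example Kcnip2 (120 ± 27.3 against 73.2 ± 59.97 CPM, n = 3), and larger for Kcnd3 (9.71 ± 6.92 against 7.75 ± 1.36 CPM), Kcnj2 and Kcne1. The difference in spread was not tested.

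KO-TAC against control compares loaded knockout hearts with unloaded WT hearts, and thus combines load and genotype. The 7 genes that were below control without overlap in TAC were also below it in KO-TAC, and none was above. Of all genes tested, 13.6% were lower and 12.9% higher without overlap, 46.2% had a log2 difference below 0 (8 of the 9 did, all but Kcne1), and 5.76% had an unadjusted p under 0.05 (1 of the 9, Kcnj2). No gene passed an adjusted p of 0.05 in edgeR (0%). This comparison and TAC against control share the control hearts, so the overlap between them is not independent evidence.

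In KO-TAC replicates 1, 2 and 3 the Kv4.2 gene Kcnd2 was at 4.54, 8.36 and 13.8 CPM, 18.5%, 34.1% and 56.0% of the control mean. The difference was -1.47 ± 1.05 with an edgeR adjusted p of 0.862. Its partner Kcnip2 was at 93.6, 118 and 148 CPM, closer to control, with a difference of -0.44 ± 0.53. Kcnd3 was at 12.1, 1.93 and 15.2 CPM. Replicate 2 held 137 counts, 10.2% of the control mean, and the other two were at 64.0% and 80.5%. The Kcnd3 difference was -0.95 ± 0.56 with all 3 hearts and -0.48 without KO-TAC replicate 2. An antisense transcript, Kcnd3os, shares 165 exonic bases with Kcnd3. It was at 0.758, 1.03 and 0.875 CPM in KO-TAC replicates 1, 2 and 3. Its levels were 1.02, 0.491 and 0.957 CPM in control and 1.04, 0.577 and 0.3125 CPM in TAC, so that of KO-TAC replicate 2 was also found in other hearts.

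Kcnj2 was at 16.4, 18.3 and 35.4 CPM in KO-TAC, with a difference of -1.11 ± 0.41 (edgeR adjusted p = 0.851). Kcnj11 was nearer to control at 74.7, 110 and 112 CPM, with a difference of -0.50 ± 0.59. For the IKr gene Kcnh2, KO-TAC values of 42.7, 54.0 and 41.0 CPM were tightly grouped at 50.0%, 63.2% and 47.9% of the control mean. The difference was -0.90 ± 0.47 with an edgeR adjusted p of 0.851. Kcnq1 was at 16.1, 25.2 and 26.4 CPM, with a difference of -0.73 ± 0.55. Kcna5 (-0.23 ± 0.32) and Kcne1 (0.13 ± 0.39) overlapped with control. Over the 9 genes, adjusted p ran from 0.851 to 0.963 in edgeR.

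**Figure D3:**
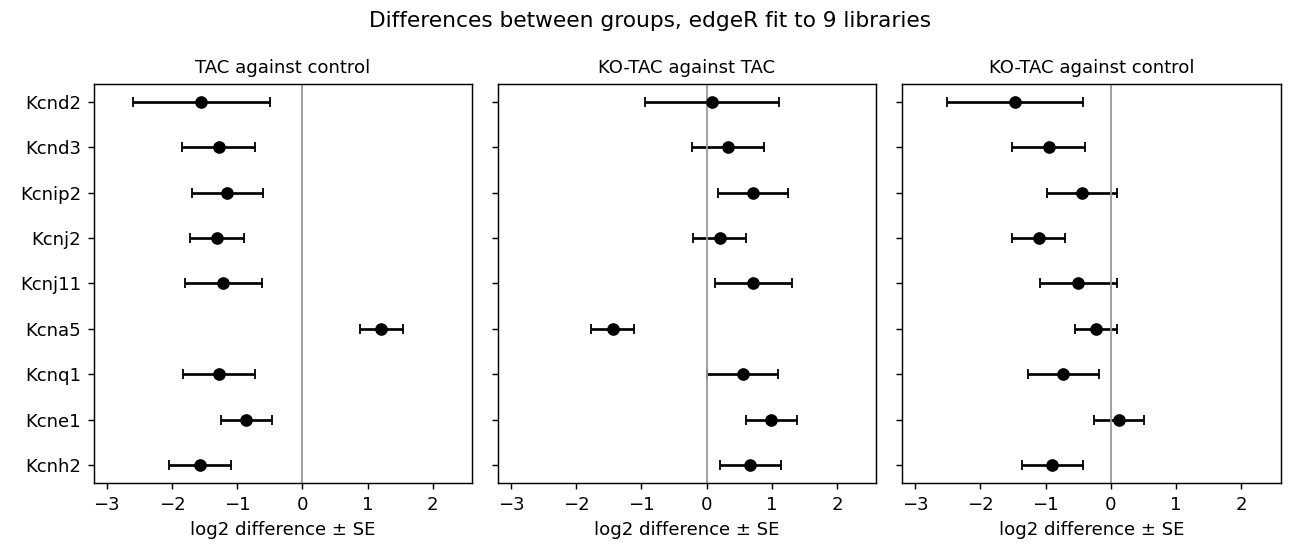
Log2 difference of each channel gene in the 3 comparisons, from 1 edgeR fit to 9 libraries. Bars are standard errors derived from the F statistic of the test. Kcna5 lies at 1.21 in TAC against control and at -1.44 in KO-TAC against TAC, and no adjusted p was under 0.05.

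Because the hearts differed in cardiomyocyte markers, each gene was also set against the mean of the 16 cardiomyocyte markers in the same heart, on the log2 scale relative to control. On that scale Kcnh2 was at -0.83, -1.10 and -0.83 in TAC and at -0.48, -0.62 and -0.99 in KO-TAC, below all 3 controls in every loaded heart. Kcnq1 was at -1.15, -0.50 and -0.68 in TAC and at -0.70, -0.54 and -0.44 in KO-TAC. Both delayed rectifier genes were thus below the marker mean, relative to control, in all 6 loaded hearts, as were Kcnd2, Kcnip2 and Kcnj11. The markers did not move together: in TAC replicate 3, Atp2a2, the calcium pump gene, was at 449.5 CPM against 12360 to 13450 CPM in control, and Tnnt2, a troponin gene, at 3097 CPM against 6801 to 7454 CPM. Kcnd2 was at -2.88, -0.34 and -3.45 in TAC and -1.93, -1.52 and -0.78 in KO-TAC. Kcnip2 (-0.84, -0.45 and -0.57) and Kcnj11 (-0.97, -0.44 and -0.94) were moderately low in TAC. In KO-TAC they were at -0.29, -0.44 and -0.08 and at -0.40, -0.32 and -0.26. The Kcnip2 value of KO-TAC replicate 3 lies just below the lowest control heart, at -0.07.

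Kcnj2 and Kcnd3 behaved otherwise in TAC replicate 3. They were at 1.20 and 0.96 there, above control relative to the markers. In TAC replicates 1 and 2, Kcnj2 was at -1.77 and -0.99 and Kcnd3 at -0.84 and -1.23. In KO-TAC, Kcnj2 was at -1.11, -1.42 and -0.44 and Kcnd3 at -0.14, -3.24 and -0.25. The Kcnd3 value of KO-TAC replicate 1 lies just below the lowest control heart, at -0.11. Kcna5 was at 1.54, 0.67 and 4.11 in TAC, above all controls, and at 0.52, 0.09 and -0.79 in KO-TAC. Kcne1 was at -0.38, -0.58 and 1.10 in TAC, with no common direction. In TAC, 5 of the 9 genes (Kcnd2, Kcnip2, Kcnj11, Kcnq1 and Kcnh2) were lower than control without overlap on this scale, against 3.91% of all genes tested, and 1, Kcna5, was higher, against 13.4%. In KO-TAC, 7 were lower (the same 5, Kcnd3 and Kcnj2), against 5.77%, and 0 were higher, against 20.4%. These are counts over 3 hearts a group, with no test. The shares over all genes include genes of other cell types, which are high relative to the markers where these are low.

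**Figure D4:**
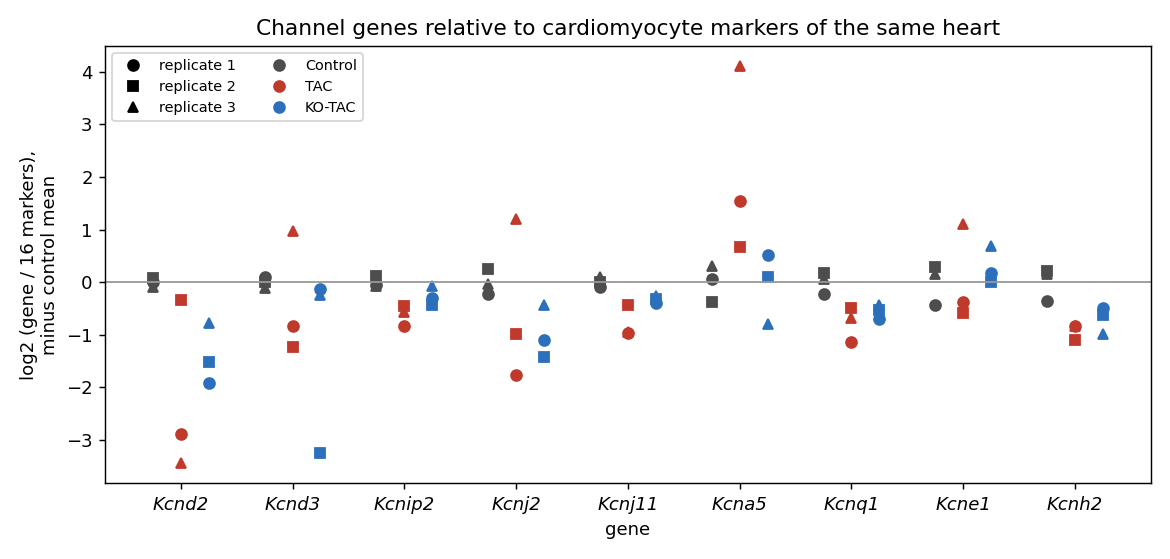
Log2 level of each channel gene relative to the mean of 16 cardiomyocyte markers in the same heart, minus the control mean; colours mark groups and symbols replicates. Kcnd2, Kcnip2, Kcnj11, Kcnq1 and Kcnh2 lie below 0 in all 6 loaded hearts, and Kcna5 in TAC replicate 3 lies at 4.11.

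Partner subunits, and Kcnj2 and Kcnj11 as pore genes of different channels, were compared as ratios of CPM within a heart. Such ratios do not depend on library scaling. Kcnip2 exceeded Kcnd2 by 6.34, 6.83 and 6.70 times in control, a narrow range. The ratio was 27.4, 6.13 and 51.5 in TAC, and 20.6, 14.1 and 10.8 in KO-TAC. All 3 KO-TAC hearts were above all controls, with a 2.21-fold higher geometric mean (exact permutation test, two-sided, p = 0.1, the smallest that 3 against 3 allows; 0.5 after adjustment over 15 tests). In TAC, replicate 2 had the control ratio, and the exact permutation p was 0.4. Kcnd2 was thus lower than its KChIP partner in 5 of the 6 loaded hearts by more than the control spread.

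The balance of the 2 Kv4 pore genes, Kcnd2 to Kcnd3, was 1.22, 1.38 and 1.32 in control. It was 0.315, 2.43 and 0.0581 in TAC and 0.377, 4.34 and 0.908 in KO-TAC, so that loaded hearts lay on both sides of the control range in each group. The Kcne1 to Kcnq1 ratio was 0.0419, 0.0526 and 0.0524 in control hearts, 0.0822, 0.0457 and 0.165 with TAC and 0.0889, 0.0709 and 0.107 in KO-TAC. For that pair KO-TAC was above control without overlap (exact permutation p = 0.1, adjusted 0.5). Kcnj2 to Kcnj11 was 0.330, 0.426 and 0.328 in control hearts, 0.206, 0.245 and 1.58 with TAC, and 0.219, 0.167 and 0.316 in KO-TAC, where it was below control without overlap (exact permutation p = 0.1, adjusted 0.5). Replicate 3 was the TAC heart in which Kcnj2 exceeded Kcnj11.

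The count of channel genes called in TAC against control depended on TAC replicate 2. Without that heart, 7 of the 9 passed an adjusted p of 0.05 in edgeR, against 27.5% of the 19920 genes then tested. Kcnd2 (-4.25, adjusted p = 0.0106), Kcnq1 (-2.27, 0.0109), Kcnip2 (-2.01, 0.0141), Kcnj11 (-2.19, 0.0145), Kcnh2 (-2.08, 0.0164) and Kcnj2 (-1.67, 0.0220) were lower in that edgeR fit. Kcna5 (1.35, 0.0211) was higher, and Kcnd3 (-1.44, 0.130) and Kcne1 (-1.17, 0.0599) did not pass. Without TAC replicate 3 none passed in edgeR, and the differences were smaller for all but Kcnj2 (-1.38), for example -1.15 for Kcnh2 and 0.88 for Kcna5. In KO-TAC against TAC, none of the 9 passed in edgeR without either heart. Kcna5 was at -1.58 without TAC replicate 2 and at -1.11 without replicate 3 (edgeR adjusted p = 0.0732 and 0.538). Kcnd2 changed sign, from 2.78 without replicate 2 to -0.47 without replicate 3.

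Other tools called more genes. DESeq2 called 3 of the 9 in TAC against control (Kcna5, Kcnh2 and Kcnj2; 8.53% of all genes), 1 in KO-TAC against TAC (Kcna5, -1.46, adjusted p = 0.0110 by DESeq2; 1.02%), but 0 when KO-TAC was set against control (0.467%). limma-voom with sample quality weights called all 9 in TAC against control (38.0% of all genes). It called 4 in KO-TAC against TAC (Kcnip2, Kcnj11, Kcna5 and Kcnq1; 5.23%) and 3 in KO-TAC against control (Kcnd2, Kcnd3 and Kcnj2; 5.2%). Kcna5 was the only one of the 9 that both of these tools called in both comparisons with TAC. The comparisons share the TAC hearts and the tools share the counts, so these calls are not independent evidence. Over 22 alternatives, the Kcna5 difference of KO-TAC from TAC stayed between -1.61 and -1.11.

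Other potassium channel genes were looked at as lists, and no gene of any list passed an adjusted p of 0.05 in edgeR. Of 26 other voltage-gated and auxiliary subunits tested, 17 were lower and 9 higher in TAC than in control, with a median log2 difference of -0.22. Without overlap, 7 of the 26 were lower and 4 higher. Of the 12 with a mean of at least 1 CPM, 8 were lower and 4 higher in TAC, with a median of -0.46. Among the most abundant was Kcng2, a silent subunit, at 73.6 ± 4.45 CPM in control hearts, at 46.0 ± 34.7 CPM with TAC and at 61.6 ± 13.0 CPM in the knockout group, with overlap throughout. Kcnv2, also a silent subunit, was at 16.9 ± 1.52, 5.58 ± 3.94 and 6.35 ± 1.87 CPM. Both groups of loaded hearts were below control without overlap.

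Of the 9 other inward rectifiers and sulfonylurea receptors tested, 6 were lower and 3 higher in TAC than in control, with a median of -0.73. Without overlap, 4 of the 9 were lower and 0 higher. Of the 8 with a mean of at least 1 CPM, 5 were lower and 3 higher, with a median of -1.10. Abcc9, the SUR2 regulatory subunit of ATP-sensitive channels, was at 456 ± 16.01 CPM in control hearts, 165 ± 117 CPM with TAC and 230 ± 117 CPM in KO-TAC. Kcnj3 (71.8 ± 13.9, 19.3 ± 21.4 and 31.2 ± 10.5 CPM) and Kcnj5 (73.8 ± 2.14, 17.2 ± 19.7 and 30.9 ± 10.7 CPM), which encode the acetylcholine-gated channel, were lower without overlap in both loaded groups. Kcnj8, the pore gene of ATP-sensitive channels in vascular mural cells, was level at 32.3 ± 2.38, 33.6 ± 3.38 and 32.7 ± 5.93 CPM. Its log2 difference was 0.06 ± 0.18 in TAC against control and -0.04 ± 0.18 in KO-TAC against TAC (SE).

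Among 13 tandem-pore and calcium-activated channel genes, 8 were higher and 5 lower in TAC, with a median of 0.16. Of the 8 with a mean of at least 1 CPM, 4 were higher and 4 lower, with a median of -0.09. Kcnk3, the TASK-1 leak channel, was at 241 ± 5.69 CPM in control hearts, 101 ± 95.8 CPM with TAC and 173 ± 88.7 CPM in KO-TAC. Kcnn1 (12.3 ± 1.05, 6.56 ± 3.99 and 12.4 ± 2.48 CPM) and Kcnn2 (13.0 ± 1.49, 5.04 ± 5.38 and 5.72 ± 1.30 CPM), small-conductance calcium-activated channels, were below control in TAC without overlap. In KO-TAC, Kcnn2 was below control without overlap and Kcnn1 was not. Kcnt2, a sodium-activated channel, was at 4.37 ± 0.676, 8.17 ± 4.29 and 5.97 ± 3.12 CPM.

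Of 14 regulators and scaffolds of cardiac potassium channels, 13 were lower in TAC than in control and 8 of them without overlap, with a median of -0.56. Among the most abundant, the Z-disc protein Actn2, the scaffold Dlg1, and Klf15, a circadian factor known to drive Kcnip2, overlapped between TAC and control. Klf15 was at 46.0 ± 3.95 CPM in control hearts, 37.1 ± 30.9 CPM with TAC and 27.4 ± 2.49 CPM in KO-TAC, the latter below control without overlap. The Iroquois factors, named here after their values were seen, pattern the ventricles, and Irx5 is known to repress Kcnd2 across the ventricular wall. Irx4 was at 31.0, 27.8 and 28.2 CPM in control hearts, 15.6, 16.3 and 10.8 CPM with TAC and 28.2, 39.0 and 27.3 CPM in KO-TAC. TAC replicates 1 and 2 were thus similar in Irx4, and any relation of the Iroquois factors to Kcnd2 was not tested. The Irx4 difference was -1.03 ± 0.21 in TAC against control and 1.15 ± 0.22 in KO-TAC against TAC (edgeR adjusted p = 0.134 and 0.250). Irx5 was at 4.81, 8.52 and 7.32 CPM in control hearts, 2.94, 1.93 and 0.718 CPM with TAC and 3.81, 4.65 and 10.8 CPM in KO-TAC, and TAC did not overlap with either other group. Irx3 was below control without overlap in TAC, at 12.3 ± 4.84 against 30.9 ± 6.12 CPM, and overlapped between TAC and KO-TAC.

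**Figure D5:**
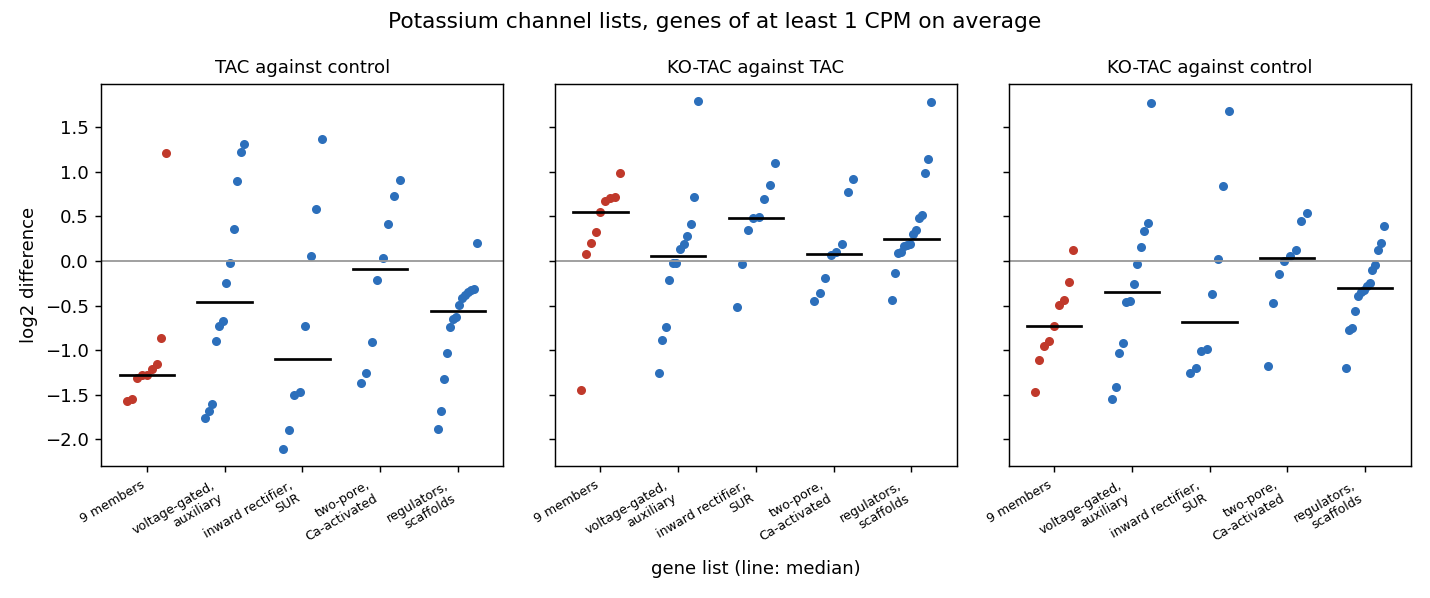
Log2 differences of the 9 channel genes (red) and of the genes of 4 further lists (blue) with a mean of at least 1 CPM, in the 3 comparisons; black lines are medians. In TAC against control the 9 genes have a median of -1.28, and the regulators and scaffolds one of -0.56.

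For the 4 channel genes with the widest range, the genes most like them over the 9 hearts were sought among 9980 others with at least 5 CPM on average, by Pearson correlation of log2 CPM. For Kcnd2 these were Adra1a, an alpha-1 adrenergic receptor gene (r = 0.999), Cul3, a ubiquitin ligase scaffold (0.998), and Ccdc47 (0.997). For Kcnd3 the highest were lower: Bcar3 (0.937), Snx9 (0.919) and Plekha5 (0.908). For Kcnj11 they were Nmnat3, an enzyme of NAD synthesis (0.998), Mylk3, the cardiac myosin light chain kinase (0.996), and Fam174b (0.996), and for Kcnh2 Rsad1 (0.991), Cux2 (0.988) and Nr3c2, the mineralocorticoid receptor (0.977). Without TAC replicate 3 the same 12 pairs had r of 0.916 to 0.997. The wide range of Kcnd3 came from KO-TAC replicate 2, at -3.27 (log2 from the control mean) against -1.43 to 0.16 in the other hearts. KO-TAC replicate 2 was not left out, so these values cannot show whether the Kcnd3 matches depend on it. The correlations describe 9 hearts that share groups and differ in cardiomyocyte markers, and carry no test. Among the 9 channel genes themselves, Kcnip2 and Kcnj11 were most alike (r = 0.994), Kcnd3 had no r above 0.648 with any other, and Kcna5 was negatively correlated with all 8.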

How the data were processed

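Heart RNA (Trizol) was sequenced from directional NEBNext libraries, per the labels' protocols. The values are raw counts per gene symbol that the authors deposited for 9 libraries. The submitters' processing notes list, without their roles, the builds mm10 and GRCm38 and the tools HISAT2 2.2.1, StringTie 2.2.1, DESeq2 1.42.0, SAMtools 1.15 and Trim Galore 0.6.10. The counter, annotation and strand setting are not stated there, so reads of Kcnd3 and Kcnq1 may be mixed with those of their antisense transcripts Kcnd3os and Kcnq1ot1 (121 shared exonic bases). The labels do not say that each library is a separate mouse, so p-values measure only the spread between these samples. Libraries of a group differed by more than sampling noise (lowest chi-square over its degrees of freedom, 23.4).

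Tests used edgeR 4.0.16 in R 4.3.3: a quasi-likelihood fit (glmQLFit, glmQLFTest) to all 9 libraries with the group as its term. TMM scaling, a filterByExpr minimum of 10 counts and Benjamini-Hochberg adjustment over 19051 genes were applied. The script was tested on simulated data. Differences are log2, and log2 CPM used a prior count of 2. Standard errors of edgeR differences were derived as the absolute log2 difference divided by the square root of the test's F statistic. Ratios were tested by exact permutation. Per-length levels use the longest GENCODE transcript of GRCm38. At 59702513 counts or more per library, counting error is largest for Kcne1 (63 to 220 counts), Kcnd2 in TAC replicates 1 and 3 (165 and 35) and Kcnd3 in KO-TAC replicate 2 (137).

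The 9 genes and the lists were chosen with earlier results of these data known. By rule, the text names the 9 genes, the 4 most abundant genes of a list in which none passed, and the 3 genes most like each of the 4 channel genes of widest range. Irx3, Irx4, Irx5, Ryr2, Myl7, Sln, Tagln, Myh11 and Cnn1 fall outside it, as do Myc, Tcf21, Kcnd3os and Kcnq1ot1. Some genes that the rule selects are not reported here. Alternatives covered scaling (RLE, upper quartile, none beyond library size), tool (DESeq2, limma-voom from limma 3.58.1 with quality weights, a robust fit), filter (none, or 1 CPM in 3 libraries), samples (2 groups, each library left out), a replicate block, removal of mitochondrially encoded genes and, for ratios, a pseudocount of 1 CPM. DESeq2 without TAC replicate 2 or 3 was added after seeing the data.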

Additional observations from a re-analysis of the deposited data

How the results depend on the processing

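Over the 22 alternatives, the 9 genes kept their direction in TAC against control. For all genes in TAC against control, edgeR called 0 and DESeq2 1626, limma-voom with quality weights 7230, DESeq2 without TAC replicate 2 7134 and DESeq2 without TAC replicate 3 759. Of the 9 channel genes these called 3, 9, 8 and 1. Leaving out each library in edgeR gave 0 to 5477 genes and 0 to 7 of the 9, the highest without TAC replicate 2. In KO-TAC against TAC the corresponding counts were 195, 996, 3706 and 152 genes, and 1, 4, 7 and 0 of the 9. Leaving out each library in edgeR gave 0 to 13 genes, the highest without TAC replicate 2, and none of the 9. In KO-TAC against control they were 89, 991, 364 and 320 genes, and 0, 3, 0 and 1 of the 9. There, no filter gave 2 genes, a fit to only the 2 groups 30, and leaving out each library 0 to 4, the highest without TAC replicate 3. The cause of these differences was not tested.

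Signs of single genes changed only for differences smaller than their error. In KO-TAC against TAC, Kcnd3 was at -0.73 with limma-voom, and at -0.14 (without KO-TAC replicate 3) to 0.81 when each library was left out. Kcnd2 was at -0.48 with DESeq2 without TAC replicate 3, and at -0.47 to 2.78 over the left-out libraries, below 0 also without TAC replicate 1 (-0.37) or KO-TAC replicate 3 (-0.38). Kcnj2 ran from -0.22 (without KO-TAC replicate 3) to 0.57, and was at -0.13 without TAC replicate 1. In KO-TAC against control, Kcna5 was at 0.036 with library size alone and at -0.42 to 0.0071 over the left-out libraries, the last without KO-TAC replicate 3. Kcne1 ran from -0.20 (without KO-TAC replicate 3) to 0.32, and was at -0.04 without Control replicate 1. Under a pseudocount of 1 CPM or with a library left out, 96 ratio values kept their sign and 9 changed it, all of ratios whose groups overlapped. For KO-TAC against TAC, the log2 difference in Kcnip2 to Kcnd2 was 0.10 with the pseudocount and ran from -1.36 to 0.17 (without TAC replicate 3). In the same comparison Kcne1 to Kcnq1 was -0.29 with the pseudocount and ran from -0.41 (without TAC replicate 2) to 0.52, with -0.10 without KO-TAC replicate 3, and Kcnj2 to Kcnj11 ran from -1.46 to 0.012 (without TAC replicate 3). For TAC against control, Kcnip2 to Kcnd3 ran from -0.77 to 0.39 and Kcnj2 to Kcnj11 from -0.68 to 0.80, both changing sign without TAC replicate 3. For KO-TAC against control, Kcnd2 to Kcnd3 ran from -1.16 to 0.60 (without KO-TAC replicate 1). With library size alone, the median of all genes was 0.29 in TAC against control and 0.28 in KO-TAC against control, and that of the 9 genes -1.09 and -0.53.

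With the replicate number as a block, 0 genes and 0 of the 9 passed in each comparison, and the medians of the 9 were -1.42, 0.81 and -0.74. Correlations of the deviations of same-numbered hearts were 0.0065, 0.037 and 0.0011 between control and TAC, -0.0066, -0.029 and 0.018 between control and KO-TAC, and 0.11, 0.12 and -0.25 between TAC and KO-TAC. Not every pair was over 0.1, so the numbers were not taken to pair the hearts. Replicates are numbered by sample title, and TAC replicates 1, 2 and 3 are the table's columns numbered 2, 3 and 4.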
